A study of Mus musculus with 5 samples.

Results

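The proximal straight tubule cells of the mouse kidney, named PTs in the annotation of the authors, made up 2958 of the 14197 cells of the series. The members were chosen by that cluster name alone, in all 5 libraries. WT female gave 528 PTs cells, WT mix 799, KO female 561, KO male 434 and KO mix 636. All libraries came from kidneys of adult littermates on the *FVB/Ant* background, so knockout and wild type animals share the strain. The WT female and WT mix libraries are wild type. The other 3, named KO female, KO male and KO mix, carry a knockout of *Fame* (*Ccdc198*), in which Cas9 with a single-stranded donor placed stop codons in the coding region. A mix library holds cells of males and females together, and no library holds wild type males alone. The number of mice behind each library and their exact age are not given in the sources used here, so p-values measure the spread between libraries or sums of their cells.

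The proximal tubule reclaims most of the sugars, amino acids and salts filtered by the glomerulus, and it secretes drugs and organic acids into the urine. Its convoluted first stretch takes up the bulk of the filtrate, while the straight segment that follows runs from the cortex into the outer medulla and is known for scavenging residual glucose and amino acids and for metabolising and exporting foreign compounds. In rodents the proximal tubule is also known to differ between males and females, with androgens acting on many transporter and enzyme genes, and most of what follows is about that difference inside PTs.

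The PTs cells held 3345796 to 5506271 UMIs (captured RNA molecules counted once each) per library, with medians of 4113 to 8708 UMIs per cell. The single-sex libraries were sequenced in run 2 and both mix libraries in run 3. Mitochondrial UMIs made up a median of 13.8 to 15.3% of a PTs cell in run 2 and 30.7 to 31.1% in run 3, and 2641 of 7966 genes (33.2%) differed between the runs in the fit described below, in which run is a covariate. Of the PTs cells, 12 carried a barcode that was also present in another library, and 1.96 to 4.09% of the cells of a library had a Scrublet doublet score above 0.25. Within the mix libraries a cell was taken as female when it held *Xist* UMIs and none of 4 Y-linked genes, as male in the reverse case, and was otherwise left out of sex comparisons. This gave 94 female and 216 male PTs cells in WT mix and 280 female and 121 male cells in KO mix. Males therefore made up 69.7% of the called cells in WT mix (95% exact interval 64.2 to 74.7) but 30.2% in KO mix (25.7 to 34.9). In the single-sex libraries 0 of 528, 0 of 561 and 0 of 434 cells were called as the other sex. A single-sex library holds no cells of the other sex, so these counts do not measure wrong calls in the mix libraries. There, 12 PTs cells of WT mix and 10 of KO mix held both *Xist* and Y-linked UMIs and were left out. Far more held neither and were also left out, 477 of 799 (59.7%) in WT mix and 225 of 636 (35.4%) in KO mix. The shares of males above are those of the called cells only.

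To set neighbouring genes with the same and with opposite sex differences side by side, the promoters of 3 organic anion transporter genes are given first. They come from 1 cluster on chromosome 19. All are the 250 bases before a start given by RefSeq on GRCm38.p6, on the minus strand and written 5′ to 3′. The gene spans given further below are those of GENCODE, whose starts can differ. The windows of *Slc22a30*, *Cyp2d26* and *Cyp4b1* therefore overlap the span of their gene, and that of *Cyp2d9* lies inside it. *Slc22a28* (chr19:8131983-8132232) and *Slc22a30* (chr19:8405106-8405355) were higher in males, and *Slc22a29* (chr19:8218901-8219150) was higher in females. Capitals mark the bases of *Slc22a28* and *Slc22a29* that have no identical partner when the promoter is aligned end to end with that of *Slc22a30*, of which there are 12 in *Slc22a28* and 68 in *Slc22a29*.
Slc22a30: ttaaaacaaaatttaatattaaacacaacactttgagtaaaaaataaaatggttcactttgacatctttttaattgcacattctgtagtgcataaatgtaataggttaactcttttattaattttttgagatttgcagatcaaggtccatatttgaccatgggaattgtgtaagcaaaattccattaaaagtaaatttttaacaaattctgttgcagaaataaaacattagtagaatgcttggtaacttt
Slc22a28: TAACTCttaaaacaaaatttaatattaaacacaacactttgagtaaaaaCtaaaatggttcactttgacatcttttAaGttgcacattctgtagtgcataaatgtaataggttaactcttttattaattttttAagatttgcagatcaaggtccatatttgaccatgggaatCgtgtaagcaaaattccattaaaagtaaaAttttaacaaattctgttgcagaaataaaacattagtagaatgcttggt
Slc22a29: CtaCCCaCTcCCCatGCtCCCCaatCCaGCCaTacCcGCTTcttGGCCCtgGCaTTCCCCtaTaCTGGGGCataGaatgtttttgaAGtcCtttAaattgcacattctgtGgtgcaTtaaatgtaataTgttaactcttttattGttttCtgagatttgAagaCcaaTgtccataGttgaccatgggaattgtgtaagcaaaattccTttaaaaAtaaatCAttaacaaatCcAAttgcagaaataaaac
The promoters of *Slc22a28* and *Slc22a30*, both higher in males, were identical in 93.0% of 256 aligned columns. Those of *Slc22a29* and *Slc22a30*, which differ in direction, were identical in 65.2% of 279 columns. These genes were picked to show both directions, and whether promoter identity goes with direction was not tested.

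A second set comes from cytochrome P450 genes. *Cyp2d9* (chr15:82452127-82452376, plus strand) was higher in males and *Cyp2d26* (chr15:82794246-82794495, minus strand) higher in females, and *Cyp4b1* (chr4:115647722-115647971, minus strand) is the P450 among the genes taken here as markers of PTs. Capitals mark matches to AGAACA, a short site known to bind steroid receptors, and to TTCNNNGAA, the site bound by STAT5, each searched on both strands (TGTTCT is AGAACA on the other strand).
Cyp2d9: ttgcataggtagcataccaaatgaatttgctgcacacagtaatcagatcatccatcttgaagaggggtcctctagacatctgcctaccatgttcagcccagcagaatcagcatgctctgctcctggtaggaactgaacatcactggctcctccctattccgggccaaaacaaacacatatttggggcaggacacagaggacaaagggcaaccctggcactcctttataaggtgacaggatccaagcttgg
Cyp2d26: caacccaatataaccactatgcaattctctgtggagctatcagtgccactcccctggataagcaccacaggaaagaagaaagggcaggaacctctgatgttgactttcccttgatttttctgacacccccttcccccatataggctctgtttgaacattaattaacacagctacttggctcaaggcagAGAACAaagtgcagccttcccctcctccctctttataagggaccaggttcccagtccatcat
Cyp4b1: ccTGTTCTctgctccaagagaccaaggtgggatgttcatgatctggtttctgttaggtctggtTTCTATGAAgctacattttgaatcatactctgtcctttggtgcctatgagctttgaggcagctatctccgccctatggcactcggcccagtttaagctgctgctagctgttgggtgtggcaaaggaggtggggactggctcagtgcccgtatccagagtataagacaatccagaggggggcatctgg
*Cyp2d26* held 1 match to AGAACA, *Cyp4b1* held 1 match to each motif, and these letters were absent from the window of *Cyp2d9*. The 2 Cyp2d promoters were identical in 53.6% of 289 aligned columns. A match describes letters in this window and is not a binding site. AGAACA was present in 16.4% of all 22862 promoters of this length and in 10.4% of the 5079 tested genes with a single entry. It was present in 12.4% of 604 such genes higher in males and in 12.3% of 546 higher in females. TTCNNNGAA was present in 5.63% and 6.04% of these groups, against 5.77% of the tested genes. The nuclear receptor site AGGTCA was present in 12.1% and 15.02%, against 10.6%.

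The label of the cluster was checked against genes known from the straight and the convoluted segment. These levels describe a cluster built from the same counts and carry no test. They are library-scaled UMI counts (CPM) after TMM scaling, a scaling that sets the bulk of genes equal between samples, and are given in the order WT female, WT mix, KO female, KO male, KO mix. *Napsa*, which encodes the aspartic protease napsin A, stood at 1646, 1319, 1554, 3532 and 1969 CPM in PTs and at 51.3 to 271 CPM in the convoluted tubule cluster (PTc). *Slc6a18*, a neutral amino acid transporter of the late proximal tubule, stood at 347, 249.8, 367, 231 and 299.7 CPM in PTs against 29.7 to 48.8 in PTc. *Slc5a1*, the high-affinity sodium glucose transporter SGLT1, stood at 57.5, 16.7, 52.3, 37.6 and 28.4 CPM against 1.36 to 2.51. These 3 genes were higher in PTs than in PTc in every library, as were 17 of the 20 genes of the straight segment list. This count and that of the convoluted list below are against PTc alone, and the share over all genes was not counted for either. The 17 include *Slc22a30*, whose excess in WT female was small, at 6.96 CPM in PTs against 6.81 in PTc. *Acy3* was higher in PT1 (987 to 5960 CPM) than in PTs (553 to 4856 CPM) in every library, and *Aadat* in every library but KO mix. *Napsa*, *Slc6a18* and *Slc5a1* were higher in PTs than in PT1 in every library. Conversely, 11 of 16 convoluted segment genes were lower in PTs in every library, among them *Slc5a2*, the low-affinity glucose transporter SGLT2, with 119, 75.95, 115, 50.03 and 62.01 CPM in PTs and 525 to 639.7 in PTc. The 4 convoluted genes that were higher in PTs in every library were *Slc22a6*, *Pck1*, *Slc6a20b* and *Slc13a3*.

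The 3 genes taken here as markers of PTs behaved differently between the sexes. *Slc7a13*, a cystine and acidic amino acid transporter of the straight segment, stood at 3.18, 746, 2.11, 1039 and 526 CPM, so it was near 0 in the PTs cells of both female libraries. *Slc22a30* stood at 6.96, 270.4, 9.47, 479 and 232 CPM, and in WT female and KO female it was as low in PTs as in PTc (6.81 and 7.25 CPM). *Cyp4b1* stood at 238, 1973, 238, 4132 and 1311 CPM in PTs, against 207, 1040.0, 158, 2194 and 538 in PTc. In female cells the label of the cluster thus rests on genes such as *Napsa*, *Slc6a18*, *Slc5a1* and *Slc5a10*, a sodium sugar transporter at 109.7 to 135 CPM in PTs and 4.54 to 24.5 in PTc. The authors also annotated a separate female cluster (PTf, 275 cells), which is not counted in PTs.

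**Figure D1:**
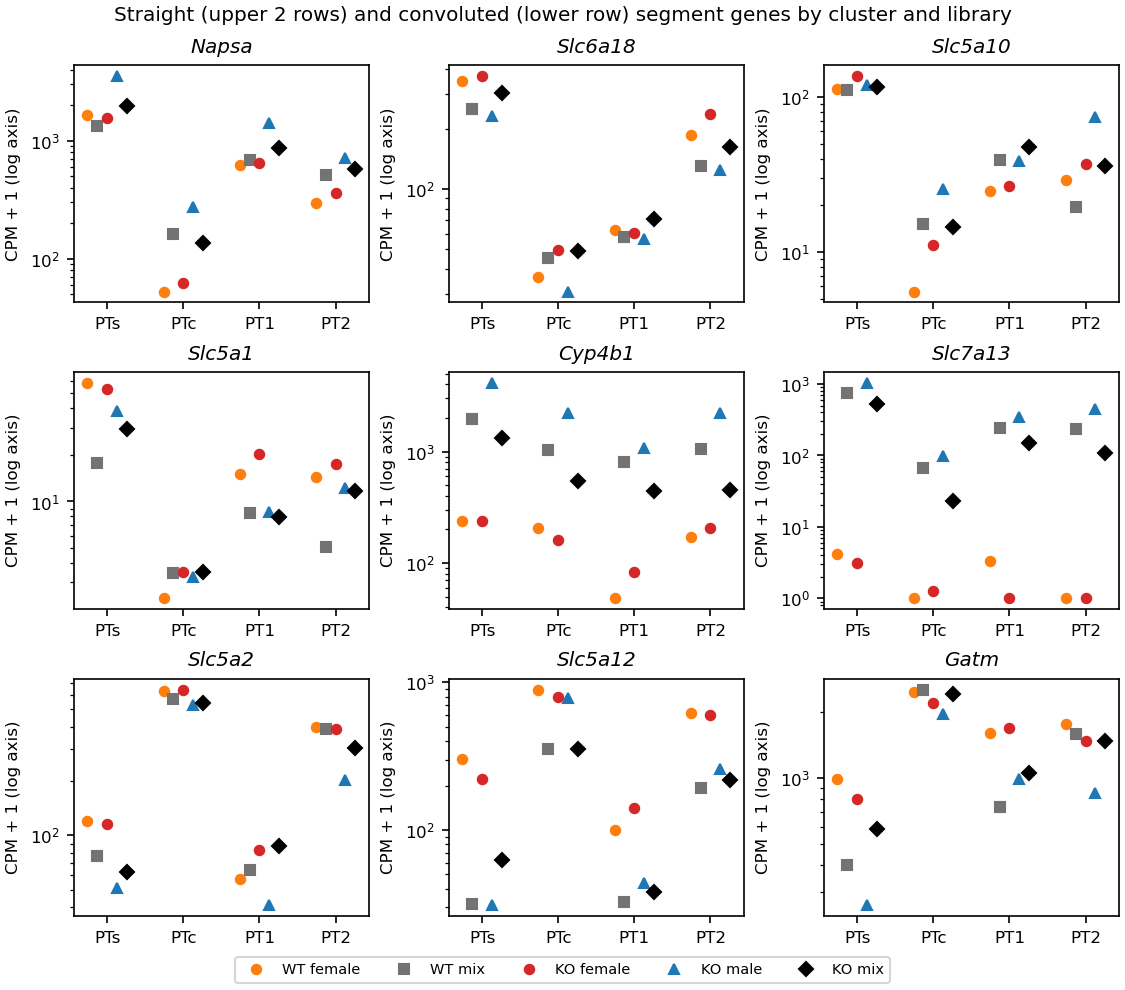
CPM + 1 (log axis) of 9 genes in the clusters PTs, PTc, PT1 and PT2, 1 point per library, with the straight segment genes in the upper rows and the convoluted segment genes in the lower row. *Napsa*, *Slc6a18*, *Slc5a10* and *Slc5a1* are higher in PTs than in PTc in all 5 libraries, while *Slc7a13* in PTs lies at 3.18 and 2.11 CPM in the female libraries and at 526 to 1039 CPM in the others.

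Among genes of at least 100 CPM, those with the largest excess of PTs over the highest of PTc, PT1 and PT2 in the library where that excess was smallest were *Cyp51*, *Slc5a8*, *Mep1a*, *Ugt3a1* and *Napsa*. *Cyp51*, lanosterol demethylase of cholesterol synthesis, stood at 401, 396, 376, 555 and 456 CPM in PTs and at 124 to 154 CPM in PT1. Its smallest excess over the next cluster was 2.59-fold, and that of *Slc5a8*, a sodium-coupled monocarboxylate transporter, was 2.50-fold. *Mep1a* encodes the brush border protease meprin A and exceeded the next cluster by at least 2.19-fold in these libraries.

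Knockout was compared with wild type over the 5 library sums of PTs cells. With edgeR's quasi-likelihood test and Benjamini-Hochberg adjustment, which is the test behind every adjusted p given here, 0 of 10342 genes (0.0%) passed the threshold of 0.05. At an unadjusted p under 0.05 there were 12 genes with edgeR and 6 with DESeq2, which also called 0. *Fame* stood at 188, 43.2, 126, 44.3 and 60.1 CPM, in the order WT female, WT mix, KO female, KO male, KO mix, and its genotypes overlapped (log2 fold change -0.58 ± 0.68, adjusted p = 1). Inserted stop codons need not remove a transcript, so this level does not check the knockout. Relative to the UMI total, *Fame* in KO male stood at 40.7 CPM in PTs, 39.4 in glomerular endothelium and 97.4 in red blood cells. Its level in KO male thus hardly exceeded that of the endothelium, while in each other library PTs was above the endothelium. *Fth1*, the ferritin heavy chain, stood at 5397, 13196, 5428, 6655 and 12639.7 CPM (log2 fold change -0.17 ± 0.60), and *Slc25a39*, the mitochondrial glutathione importer, at 134, 426, 137, 156 and 355 CPM (-0.38 ± 0.64). Both were higher in the mix libraries than in the single-sex libraries of either genotype, which is the split by run. The genotype effect in PTs also did not pass the threshold against that in PTc for any of 10313 genes (0 called, 150 at an unadjusted p under 0.05, and 0 and 11 with DESeq2).

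PTs cells were 20.8% of all cells in WT female (95% exact interval 19.2 to 22.4), and the share was 20.4 ± 3.38% (SD, n = 3) in knockout and 22.3 ± 2.13% (n = 2) in wild type libraries. The difference was within the spread between libraries (exact two-sided permutation test p = 0.6, the smallest possible being 0.1), and among cells of at most 25% mitochondrial UMIs its direction turned, to 0.960 percentage points higher in knockout.

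Male and female PTs cells were then compared. The male values are those of 3 sums, given in the order KO male, male cells of WT mix and male cells of KO mix, and the female values those of 4 sums, in the order WT female, KO female, female cells of WT mix and female cells of KO mix. The sums of a mix library share its cells' preparation and are not independent of each other. In a fit with run and genotype as covariates, 1927 of 7966 genes (24.2%) were called, 1029 higher in males (12.9%) and 898 higher in females (11.3%). Without KO male 1088 genes were called, and with DESeq2 1178. Of the 1927, 748 differed by more than 2-fold (353 higher in males, 395 in females), 260 by more than 4-fold and 145 by more than 8-fold. The direction was the same in all 3 pairings of male with female sums for 1759 of the 1927 genes. These genes were called from the same sums, so this count describes the calls and is not independent support. The share over all tested genes was not counted. Differences are given as the log2 fold change of male over female cells ± SE, which is negative where females were higher. The balance of directions depended on scaling. Scaled to the UMI total alone, 2212 genes were called, 667 higher in males and 1545 in females, so 30.2% rather than 53.4% of the calls were higher in males, and the median log2 difference of all genes moved from -0.0016 to -0.17. Within the mix libraries alone 1146 of 6755 genes were called (17.0%), 600 higher in males (8.88%) and 546 in females (8.08%).

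Free RNA was followed in the glomerular endothelium, which should lack these tubule genes. Relative to the UMI total, *Slc7a13* in the endothelial cells of KO male was at 74.8 CPM, with 57.2 CPM for WT mix and 34.6 CPM for KO mix, but 2.0 and 0 CPM for the female libraries of wild type and knockout. The level of *Slc7a13* in female PTs cells of these mix libraries was 64.6 CPM in WT mix and 39.7 CPM in KO mix on the TMM scale. For *Pzp* and *Gm48281* the endothelium of WT mix was at 1.68 CPM each and that of KO mix at 0, below the female PTs cells given below. For *Acsm3* it was at 35.3 and 36.1 CPM in WT mix and KO mix, and for *Hsd11b1* at 16.8 and 9.02. For *Ugt2b37* it was at 23.6 and 21.0 CPM, and for *Ugt8a* at 18.5 and 4.51. These values were above the female PTs cells of the same library. For *Cyp2d9* (11.8 and 13.5 CPM) and *Cpe* (1.68 and 9.02 CPM) it was below them in WT mix and above them in KO mix. Red blood cells of KO male held more *Slc7a13* than the endothelium, at 242 CPM. The part of free RNA in the differences below was not tested. For *Prlr*, a female gene, the endothelium stood at 61.8 and 56.8 CPM in WT female and KO female and at 0 CPM in KO male, with 1.7 CPM for WT mix and 7.5 CPM for KO mix.

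Markers of other cells also moved with sex. The 5 loop of Henle markers summed to 131 to 227 CPM in male and 251 to 683 CPM in female sums, and all 4 tested markers were higher in females, but 2 of 4 without KO male and 1 of 3 within the mix libraries. The 5 distal convoluted tubule markers summed to 78.9 to 144 CPM in males and 140.3 to 339 CPM in females, with none of 4 tested markers called. Red blood cell markers summed to 3.02 to 3270 CPM in males and 12.5 to 5999 in females. Of these, *Hbb-bt*, a beta globin, stood at 218, 1.01 and 0 CPM in males and 293, 428, 0 and 0.735 in females, so it was far lower in the mix libraries of run 3, and with run as a covariate it was called higher in females (log2 fold change -0.96, adjusted p = 0.00072), 1 of 3 tested. Principal cell markers went the other way and did not overlap, with 53.5 to 95.6 CPM in males and 33.8 to 51.2 in females, and *Aqp3*, a water channel, was called higher in males (1 of 2 tested, log2 fold change 1.65, adjusted p = 1.8e-06). Myeloid markers summed to 9.86 to 170.3 CPM against 12.9 to 98.5, endothelial markers to 13.9 to 22.2 against 7.35 to 39.2, and podocyte markers to 2.48 to 5.04 against 4.91 to 8.36. The part of such cells in the differences below was not tested.

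The 12 largest differences toward males whose sums did not overlap with the female sums were led by genes at or near 0 in female cells. Sums did not overlap in this direction for 763 of 7966 genes (9.58%). *Ctxn3*, which encodes a small membrane protein of the cortexin family, stood at 50.5, 14.1 and 18.3 CPM in males and had no UMI in any female sum, against 231 UMIs in males, so it was at least 148-fold higher (3 counts taken over the female group, adjusted p = 5.9e-11). *Pzp*, a protease inhibitor of the alpha-2-macroglobulin family, stood at 137, 52.4 and 61.96 CPM in males and 0.398, 0, 5.16 and 1.47 in females (log2 fold change 7.68 ± 0.57, adjusted p = 3.3e-05). Both were far above the female range in every male sum, and highest in KO male. *Gstp3*, a pi class glutathione transferase, stood at 90.2, 63.5 and 70.4 against 0, 0, 7.75 and 1.47 CPM (7.39 ± 0.78, adjusted p = 0.0024). *Cpe*, carboxypeptidase E, stood at 59.7, 37.3 and 49.3 against 0.995, 0.526, 2.58 and 0.735 CPM (5.95 ± 0.30, adjusted p = 1.2e-12), with all female sums near 0. The predicted gene *Gm44785* had 2 UMIs in females against 141 in males, a ratio of 136 (95% counting interval 36.9 to 1131), and *Gm48281* stood at 88.4, 47.3 and 64.8 against 0, 0, 7.75 and 3.67 CPM (6.54 ± 0.97, adjusted p = 0.021).

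Several of the other genes in this group are enzymes of steroid and lipid handling. *Hsd11b1*, which regenerates active glucocorticoid, stood at 325, 75.6 and 78.9 CPM in males and 3.78, 1.404, 10.3 and 5.88 in females (6.21 ± 0.78, adjusted p = 0.015). *Ugt2b37*, a glucuronosyltransferase, stood at 939.7, 296 and 284 against 2.98, 4.91, 18.1 and 20.6 CPM (6.25 ± 0.94, adjusted p = 0.028). For both, KO male was far above the male cells of the mix libraries, so the spread within males was wide. *Acsm3*, a medium-chain acyl-CoA synthetase, stood at 646, 442 and 574 against 0.796, 1.05, 25.8 and 25.7 CPM (6.45 ± 1.04, adjusted p = 0.033), and *Ugt8a*, a galactosyltransferase of ceramide, at 81.5, 82.6 and 97.2 against 0.597, 0.351, 12.9 and 3.67 (5.80 ± 0.55, adjusted p = 0.00056). *Cyp2d9*, a P450 known as a male testosterone hydroxylase of mouse liver, stood at 128, 134 and 142 against 0, 0.526, 20.7 and 1.47 CPM (6.68 ± 0.95, adjusted p = 0.023). The marker *Slc7a13* stood at 1039, 852 and 932 against 3.18, 2.11, 64.6 and 39.7 CPM (6.13 ± 1.11, adjusted p = 0.043). In *Acsm3*, *Slc7a13* and *Cyp2d9* the female cells of the mix libraries lay above those of the female libraries, and within the mix libraries alone the log2 differences were 4.39, 4.30 and 4.49. Without KO mix, *Gstp3*, *Ugt8a*, *Hsd11b1*, *Gm48281*, *Ugt2b37*, *Acsm3*, *Cyp2d9* and *Slc7a13* no longer passed the threshold, with adjusted p of 0.14 to 0.45 and log2 differences of 5.89 to 7.49, and without WT mix *Acsm3*, *Ugt2b37* and *Slc7a13* did not (0.47 to 0.48). Without WT female the adjusted p of 6 of these genes was 0.087 to 0.17, and without KO female that of 4 was 0.11 to 0.13. Without KO male the differences kept their direction but were smaller, at 4.62 for *Pzp*, 4.52 for *Gstp3*, 3.57 for *Gm44785*, 3.67 for *Gm48281*, 3.89 for *Ugt2b37* and 3.39 for *Hsd11b1*.

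The 12 largest differences toward females were led by genes at or near 0 in male cells. Female sums lay above all male sums for 794 of 7966 genes (9.97%). *Prlr*, the prolactin receptor, stood at 246, 322, 103 and 81.6 CPM in females and 0.248, 0 and 0 in males, 1 UMI against 3220, a ratio of 1673 (95% counting interval 300.1 to 66099, adjusted p = 2.6e-14). *Fabp1*, the liver fatty acid binding protein, stood at 48.9, 28.9, 5.16 and 14.7 CPM and had no UMI in males (at least 75.0-fold higher in females). *Cdh6*, a cadherin of the early proximal tubule, stood at 24.1, 18.1, 18.1 and 16.2 CPM, also with no UMI in males (at least 43.8-fold). *Baat*, which conjugates bile acids and fatty acids with amino acids, stood at 7.76, 7.89, 7.75 and 1.47 CPM with none in males (at least 15.4-fold). These genes were absent or nearly absent from every male sum.

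*Slc22a29*, the organic anion transporter whose promoter is printed above, stood at 128, 114, 106 and 102 CPM in females and 0.743, 0 and 2.82 in males (-6.93 ± 0.32, adjusted p = 3e-13). *Hdc*, histidine decarboxylase, which makes histamine, stood at 282, 122, 178 and 316 CPM in females and 0, 1.01 and 7.04 in males (-7.50 ± 1.11, adjusted p = 0.027, and -6.36 with adjusted p = 0.18 without KO male). *Cyp4a14*, a fatty acid omega-hydroxylase, stood at 928, 843, 849 and 907 CPM in females and 6.69, 13.1 and 23.9 in males (-6.32 ± 0.31, adjusted p = 3e-06), and its 4 female sums were almost level. *Kynu*, kynureninase of tryptophan breakdown, stood at 104, 97.5, 67.1 and 62.4 against 0.991, 1.01 and 2.82 CPM (-6.09 ± 0.31, adjusted p = 1.2e-12). *Prom1*, the membrane glycoprotein prominin 1, stood at 126, 103, 54.2 and 67.6 against 1.24, 0 and 4.22 CPM (-6.05 ± 0.35, adjusted p = 5.9e-11). *Ugt1a2* (57.3, 49.6, 38.7 and 44.1 CPM in females) had 2 UMIs in males, and the ratio was 168 (95% counting interval 46.3 to 1389). The predicted genes *Gm10639* and *Gm16010* had ratios of 371 (127 to 1803) and 285 (51.0 to 11287). In contrast to the male genes, of these 12 only *Hdc* lost its call when any 1 library was left out.

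**Figure D2:**
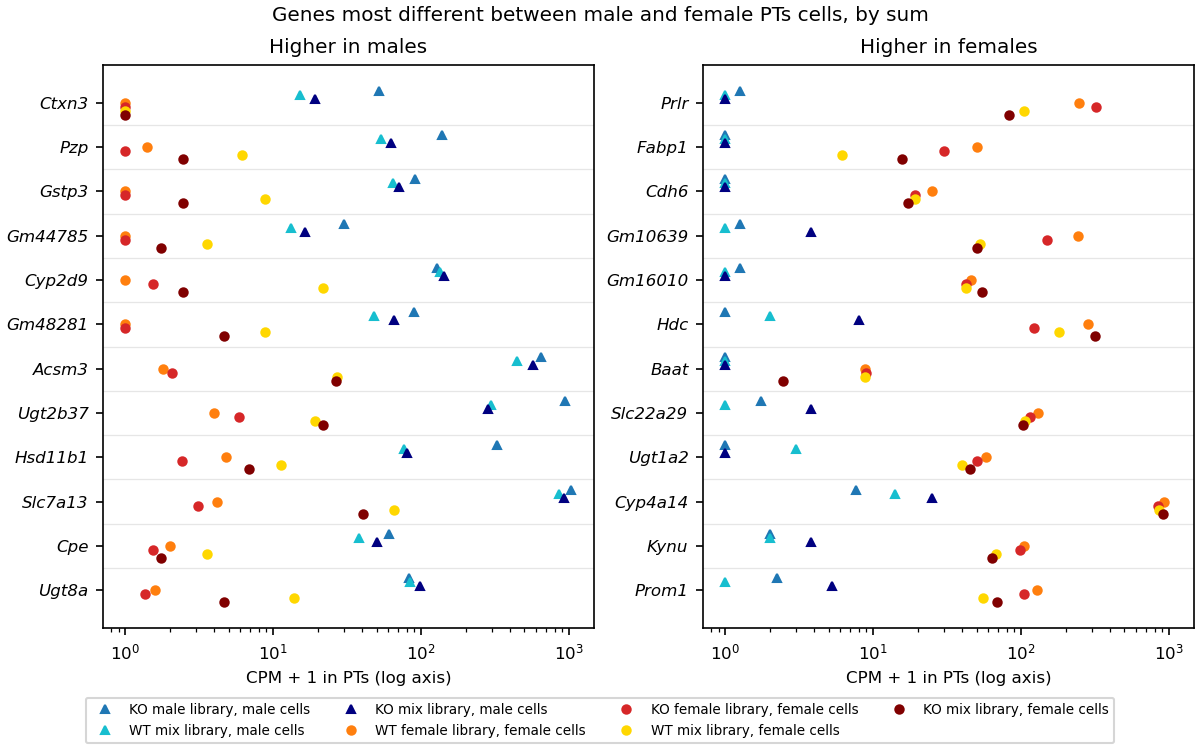
CPM + 1 in PTs (log axis) of the 12 genes with the largest difference toward males (left) and toward females (right), 1 point per sum, with triangles for male and circles for female cells. The triangles and circles of each gene do not overlap, and in *Slc7a13* the female cells of the mix libraries (64.6 and 39.7 CPM) lie between the female libraries and the males.

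The same contrast was seen in single cells thinned to 1000 UMIs each. *Slc7a13* was detected in 58.8% of the PTs cells of KO male (95% exact interval 54.0 to 63.4), in 51.4% of male cells of WT mix and in 53.7% of male cells of KO mix. In female cells it was detected in 0.379% in WT female, 0.178% in KO female, 4.26% in WT mix and 3.93% in KO mix. In the endothelium of the 3 libraries with males it was detected in 10.6% (KO male), 5.80% (WT mix) and 4.05% (KO mix), so the shares in female cells of the mix libraries did not exceed background. *Prlr* was detected in 21.2% of cells of WT female, 26.4% of KO female, 13.8% of female cells of WT mix and 4.29% of those of KO mix. In males it was detected in 0.230% of cells of KO male and in 0 of 216 and 0 of 121 male cells of WT mix and KO mix, which allows shares of up to 1.39% and 2.48% by 3 counts and has exact 95% upper limits of 1.69% and 3.003%. Its endothelial shares were 6.16% and 7.03% in WT female and KO female, and 0.362% and 0.676% in WT mix and KO mix. Without thinning, *Slc7a13* was detected in 89.8 to 95.9% of male cells and *Prlr* in 27.5 to 72.0% of female cells. Median depth was 3998 to 8708 UMIs in the PTs groups and 1532 to 1889.5 in the endothelium.

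Genes of a family that lie side by side could differ in opposite directions. On chromosome 19 (GRCm38) 8 Slc22a genes, which transport organic anions, were tested, with 4 higher in males and 3 in females. In chromosomal order *Slc22a12* (6535845 to 6543032), the urate transporter, had a log2 fold change of 0.60, *Slc22a19* (7673061 to 7711310) of -3.30 without a call (adjusted p = 0.072), and *Slc22a26* (7781041 to 7802667) of -3.31. *Slc22a28* (8062209 to 8131982) stood at 169, 119.9 and 117 CPM in males and 4.77, 6.14, 12.9 and 15.4 in females (4.20 ± 0.27, adjusted p = 2.2e-07). Next to it, *Slc22a29* (8160165 to 8218900) had a difference of -6.93, and then *Slc22a30* (8335371 to 8405111) stood at 479, 312 and 438 CPM in males and 6.96, 9.47, 36.1 and 47.8 in females (4.43 ± 0.62, adjusted p = 0.023). The direction thus changed from male to female and back to male over 3 consecutive tested genes. Farther along, *Slc22a8* (8591254 to 8611835), the transporter OAT3, stood at 72.3, 90.7 and 87.3 CPM in males and 615, 716, 586 and 519 in females (-2.88 ± 0.14, adjusted p = 2.6e-12), while its neighbour *Slc22a6* (8618039 to 8628299), OAT1, was higher in males by 0.80 (adjusted p = 2e-06). The difference of *Slc22a8* was thus the larger of this pair, and opposite in direction.

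On chromosome 4, 5 Cyp4 genes of fatty acid omega-hydroxylation were tested, 2 higher in males and 3 in females. *Cyp4a12a* (115299046 to 115332815), whose product makes the vasoconstrictor 20-HETE, was higher in males by 5.72 (adjusted p = 0.01). *Cyp4a14* (115486200 to 115496142) was higher in females, as above, and so was *Cyp4a10* (115518264 to 115533649), with 123, 137 and 145 CPM in males and 637, 571, 777 and 862 in females (-2.44 ± 0.12, adjusted p = 4.1e-13). *Cyp4a31* (115563649 to 115579015) had -1.28. *Cyp4b1* (115624725 to 115647723) lies at the end of this run and stood at 4132, 2212 and 2150.1 CPM in males and 238, 238, 336 and 303 in females (3.36 ± 0.37, adjusted p = 0.011). On chromosome 15, *Cyp2d9* (82433437 to 82456845) was higher in males, while *Cyp2d22* (82370527 to 82380260), *Cyp2d12* (82555072 to 82560403) and *Cyp2d26* (82790101 to 82794294) were higher in females, at log2 fold changes of -1.71, -3.42 and -4.63. *Cyp2d26* stood at 3.47, 4.03 and 4.22 CPM in males and 96.9, 97.5, 103 and 80.1 in females, with little spread within either sex. Some families went in 1 direction among their called members, as 5 of 5 tested Acot genes on chromosome 12 and 3 of 3 Gsta genes on chromosome 9 were higher in females, and 3 of 4 Acsm genes on chromosome 7 in males. Others were divided, as *Gstm5* and *Gstm7* on chromosome 3 were higher in females (-0.95 and -3.68) and *Gstm1* in males (0.50), and *Acot13* on chromosome 13 was higher in females (-0.46) and *Acot12* in males (1.51). Reads of near-identical copies may have been divided between the members of these families during counting, so values of single members are uncertain to that extent.

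**Figure D3:**
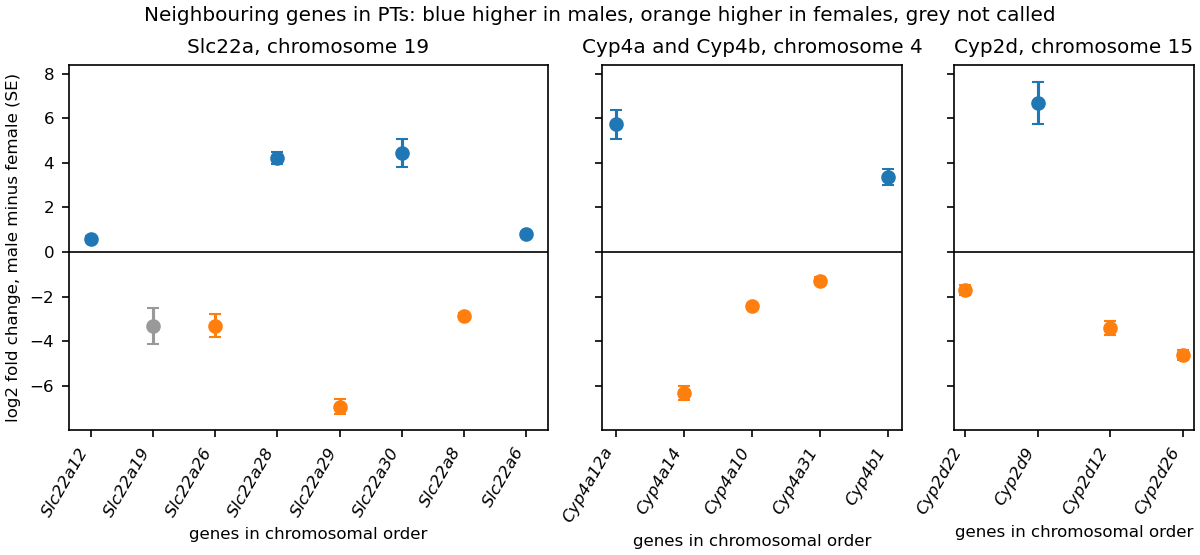
Log2 fold change of male minus female PTs cells (points, with SE) for tested genes of the Slc22a family on chromosome 19, the Cyp4a and Cyp4b genes on chromosome 4 and the Cyp2d family on chromosome 15, in chromosomal order but not to genomic scale. Neighbours such as *Slc22a28* (4.20) and *Slc22a29* (-6.93) lie on opposite sides of 0.

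The segment lists differed in how they moved with sex. Over all tested genes 12.9% were called higher in males and 11.3% higher in females, the shares to set beside each list below. Of 17 tested straight segment genes 6 were higher in males and 4 in females, with a median log2 fold change of 0.30 against -0.0016 over all genes. Within the mix libraries these counts were 8 and 8 of 18. *Acy3*, an aminoacylase that acts on mercapturic acids, stood at 4856, 3218 and 3129 CPM in males and 553, 616, 842 and 704 in females (2.46 ± 0.27, adjusted p = 0.005, and 2.35 with adjusted p = 0.056 without KO female). *Slc5a8* stood at 310.1, 320.4 and 309.8 against 104, 119, 139 and 121 CPM (1.38 ± 0.12, adjusted p = 5.2e-09). Against this, *Slc6a18* was higher in females, with 231, 208 and 229.5 CPM in males and 347, 367, 361 and 339 in females (-0.66 ± 0.11, adjusted p = 9.4e-05), and so was *Slc5a1* (log2 fold change -0.90, adjusted p = 0.0032), whose value was -0.54 (adjusted p = 0.15) without KO mix and -1.72 without KO male. *Napsa* (0.10) and *Slc5a10* (-0.01) were not called.

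Of 16 convoluted segment genes, 12 were higher in females and 1, *Slc22a6*, in males, with a median of -1.001. *Slc5a12*, a lactate transporter of the early tubule, stood at 29.97, 25.2 and 23.9 CPM in males and 302, 219, 98.1 and 99.2 in females (-2.60 ± 0.19, adjusted p = 5.1e-10). The female libraries were above the female cells of the mix libraries, which were still above all males. *Gatm*, which makes the creatine precursor guanidinoacetate, was higher in females (log2 fold change -1.39, adjusted p = 5.1e-05) and so was *Slc7a8*, a basolateral neutral amino acid exchanger (log2 fold change -2.48, adjusted p = 3e-08). *Pck1*, the rate-limiting enzyme of gluconeogenesis, stood at 1943, 1475 and 955 CPM in males and 6552, 6303, 3024 and 2065 in females (-1.25 ± 0.12, adjusted p = 5e-07). *Slc34a1*, the phosphate transporter NaPi-IIa, and *Slc5a2* were not called (0.08 and -0.52). When every cell with a UMI of *Slc5a2* or *Slc5a12* was left out, 10 of 13 tested convoluted genes were higher in females, with a median of -0.71, and within the mix libraries alone 10 of 15 (median -0.72). Whether the cluster covers the same stretch of tubule in both sexes was not tested. In the endothelium of KO male, *Slc5a12* stood at 35.4 CPM against 27.5 in PTs, so its male level did not exceed background.

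Transporters of organic anions and cations were divided, with 8 of 26 higher in males and 8 in females (median 0.34). *Slco3a1*, an organic anion transporting polypeptide, stood at 195, 140.0 and 138 CPM in males and 14.7, 12.6, 20.7 and 18.4 in females (3.50 ± 0.18, adjusted p = 1.6e-12). *Abcb1b*, a P-glycoprotein that pumps drugs out of cells, was higher in females (log2 fold change -4.98, adjusted p = 5.5e-10, and -8.87 without KO male). Among amino acid transporters 3 of 19 were higher in males and 9 in females (median -0.32). *Slc3a2*, the heavy chain shared by several exchangers, was higher in females (log2 fold change -1.58, adjusted p = 6.4e-07) and so was *Slc7a9*, the light chain of the cystine transporter b0,+AT (log2 fold change -1.15, adjusted p = 1.3e-06). *Slc1a1*, the glutamate transporter EAAT3, was higher in males by 0.57 (adjusted p = 0.0011), a call lost without KO male (0.46, adjusted p = 0.068) and within the mix libraries (0.44, 0.063).

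Conjugating and steroid enzymes were mostly higher in males, 15 of 25 with 2 higher in females and a median of 1.02. *Ces2c*, a carboxylesterase, stood at 558, 335 and 394 CPM in males and 58.7, 61.8, 72.3 and 63.2 in females (2.83 ± 0.14, adjusted p = 1.6e-12). *Akr1c21*, a 3(17)alpha-hydroxysteroid dehydrogenase, was higher in males by 1.61 (adjusted p = 7.9e-10). *Srd5a2*, steroid 5alpha-reductase 2, which makes dihydrotestosterone, was higher in males by 3.73 (adjusted p = 2.7e-09) and by 2.45 without KO male. *Nat8*, which completes mercapturic acids by acetylation, and *Ugt3a2* were higher in males by 1.01 and 1.02. Cytochrome P450 genes and their partners were even, with 7 of 22 in each direction. *Cyb5a*, the electron donor cytochrome b5, was higher in males by 1.12 (adjusted p = 7.4e-09), and *Cyp2e1*, which oxidises ethanol and acetone, by 3.62 (adjusted p = 0.011).

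Genes of fatty acid oxidation were called in both directions, 11 of 48 higher in males and 17 in females (median -0.13). *Acsl1*, a long-chain acyl-CoA synthetase, was higher in females (log2 fold change -2.95, adjusted p = 8.5e-13), and so was *Acot3*, a peroxisomal thioesterase (log2 fold change -5.70, adjusted p = 1.2e-12). *Hao2*, a peroxisomal hydroxyacid oxidase, was higher in females (log2 fold change -2.07, adjusted p = 1.6e-12). In males *Nudt19*, which hydrolyses coenzyme A, was higher by 1.94 (adjusted p = 1.3e-11) and *Acsm2* by 1.77 (adjusted p = 2e-10). Glutathione and peroxide enzymes were likewise divided, 10 of 36 against 13 (median 0.02). The glutathione transferases *Gsta4*, *Gsta3*, *Gsta1* and *Gsto1* and the microsomal *Mgst3* were higher in females, with log2 fold changes of -4.57, -2.02, -5.84, -4.97 and -1.56.

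In the iron list 5 of 20 genes were higher in males and 3 in females (median 0.22), but scaled to the UMI total alone the counts were 2 and 6 of 20. *Tfrc*, the transferrin receptor, stood at 90.2, 61.5 and 66.2 CPM in males and 11.1, 14.04, 20.7 and 15.4 in females (2.48 ± 0.19, adjusted p = 7e-10). *Hmox1*, haem oxygenase 1, which releases iron from haem, was also higher in males by 2.31 (adjusted p = 1.5e-06), while *Slc40a1*, the iron exporter ferroportin, and *Steap2*, a metalloreductase, were higher in females (log2 fold changes -1.18 and -1.52). Both ferritin chains differed little. *Ftl1* was higher in females (log2 fold change -0.51, adjusted p = 0.00049) and lost its call without KO mix (-0.42, adjusted p = 0.074), and *Fth1* stood at 6655, 13185 and 13529 CPM in males and 5397, 5428, 10447 and 10779.6 in females (0.32 ± 0.08, adjusted p = 0.0075). Its sexes overlapped, both mix libraries were above the single-sex libraries, and its call was lost without WT mix (0.34, adjusted p = 0.12) or KO mix (0.32, adjusted p = 0.18).

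In the albumin and protein uptake list 2 of 32 genes were higher in males and 5 in females (median 0.04), and 0 and 8 of 32 scaled to the UMI total. With both directions together, this list was not called more often than the 24.2% of all genes. The receptors *Cubn*, cubilin, and *Lrp2*, megalin, which take up filtered albumin, were higher in females (log2 fold change -0.93, adjusted p = 3.8e-06 for cubilin, and log2 fold change -0.62, adjusted p = 2.7e-05 for megalin). The lysosomal proteases *Lgmn*, *Ctsb* and *Ctsl* had log2 fold changes of -0.52, -0.50 and -0.33, higher in females. The calls of *Lgmn* (-0.46, adjusted p = 0.058) and *Ctsl* (-0.19, 0.55) were lost without KO mix, and those of *Ctsb* (-0.43, 0.12) and *Ctsl* (-0.30, 0.31) without WT mix. That of *Ctsl* was also lost without WT female (-0.36, 0.054), and without KO male it was -0.54. Of 26 genes of gluconeogenesis and sugar transport, 8 were higher in males and 6 in females (median 0.03), and 5 and 9 of 26 scaled to the UMI total. *Akr1b3*, aldose reductase, was higher in males by 2.52 (adjusted p = 3.2e-10). *Slc5a9*, a mannose and fructose transporter, was higher in females (log2 fold change -3.40, adjusted p = 1.5e-06) and so was *Miox*, which opens the inositol ring (log2 fold change -1.25, adjusted p = 6.3e-10).

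Hormone receptors and their targets gave 5 of 22 higher in males and 6 in females (median -0.13), 4 and 2 of 20 within the mix libraries and 4 and 3 of 21 without KO male. *Odc1*, ornithine decarboxylase of polyamine synthesis, a known androgen target of mouse kidney, stood at 1561, 2164 and 1867 CPM in males and 321, 313, 389.9 and 286 in females (2.52 ± 0.11, adjusted p = 1.3e-13). *Esr1*, the oestrogen receptor alpha, was higher in males by 1.19 (adjusted p = 0.0075). *Nr1h4*, the bile acid receptor FXR, was higher in males by 0.87 (adjusted p = 2e-05). *Ppara*, the fatty acid receptor, was higher in females (log2 fold change -0.95, adjusted p = 0.00035), and by 0.58 on the log2 scale without KO male (adjusted p = 0.21) and 0.55 within the mix libraries (0.25). *Socs2*, an inhibitor of growth hormone signalling, was higher in females (log2 fold change -1.39, adjusted p = 0.00047), a call lost within the mix libraries (-0.75, 0.096), and so was *Per1*, a clock gene (log2 fold change -1.20, adjusted p = 0.0026), with -0.36 (adjusted p = 0.76) without KO male and -0.97 (0.064) without KO female.

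Lists of genes known as sex-biased in kidney were counted in the same fit. Of 23 male-biased genes, 16 were higher in males, with a median of 4.43, and 2, *Gsta4* and *Serpina1f*, were higher in females. *Timd2*, a ferritin receptor, was higher in males by 5.51 (adjusted p = 3.2e-08), and by 3.47 without KO male. *Kap*, the kidney androgen-regulated protein, stood at 77931, 88447 and 116715 CPM in males and 169.7, 122, 9507 and 8031 in females, and although the sums did not overlap it was not called (5.80 ± 1.89, adjusted p = 0.14). Of 18 female-biased genes, 8 were higher in females and 4, *Adh1*, *Rnf24*, *Hsd3b3* and *Akr1c18*, in males, with a median of -1.45. Within the mix libraries the counts of the female-biased list were 4 and 13 of 19. Immediate early and heat shock genes gave 7 of 30 higher in males and 2 in females (median 0.30), 14 and 0 of 31 without KO male and 14 and 1 of 29 within the mix libraries. The tubule injury list had 3 of 5 genes higher in males and 1 in females, and the 13 mitochondrial genes 1 and 0. On the X chromosome 25.9% of 224 tested genes were called, 24 higher in males and 34 in females, close to the 24.2% over all genes.

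**Figure D4:**
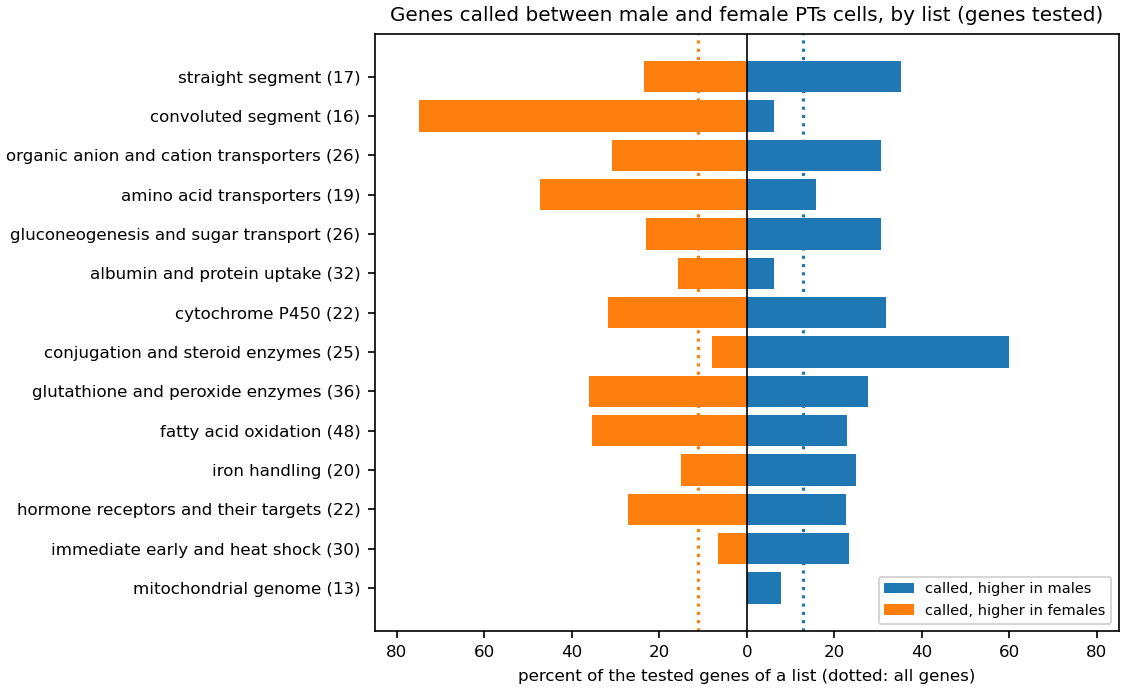
Percent of the tested genes of each list that were called higher in males (blue, right) or higher in females (orange, left), with the number tested in brackets and dotted lines at the shares over all genes (12.9% and 11.3%). The convoluted segment list extends toward females (12 of 16) and the conjugation and steroid list toward males (15 of 25).

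The sex difference of PTs was finally set against that of PTc in the same libraries, with each sum's source as a block. It differed for 333 of 8474 genes (3.93%), toward males in PTs for 111 (1.31%) and toward females for 222 (2.62%). The count was 211 without WT female, 217 without KO female and 197 with DESeq2. In PTc itself 484 of 7637 genes (6.34%) were called between the sexes, 259 higher in males (3.39%) and 225 in females (2.95%). The 8 genes with the smallest p were all more female in PTs. *Oat*, ornithine aminotransferase, stood at 13.9, 20.1 and 30.98 CPM in male and 584, 545, 328 and 306 in female PTs cells, and at 169, 227 and 185 and 408, 397, 352 and 406 CPM in PTc (difference of the log2 differences -3.53 ± 0.26, adjusted p = 5.9e-12). The 3 male PTs sums were below every other sum of both clusters. *Gldc*, the glycine cleavage decarboxylase, stood at 17.3, 21.2 and 19.7 CPM in male and 399, 360.3, 209 and 160.2 in female PTs cells (-2.98 ± 0.22, adjusted p = 5.9e-12). *Acaa2*, the last enzyme of mitochondrial beta-oxidation, stood at 9.91, 12.1 and 19.7 against 386, 359, 201 and 235 CPM (-3.32 ± 0.28, adjusted p = 2.1e-10).

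*Prodh2*, hydroxyproline dehydrogenase, stood at 2.72, 4.03 and 5.63 CPM in male and 79.2, 85.4, 59.4 and 52.2 in female PTs cells (-3.73 ± 0.33, adjusted p = 4.5e-10), and *Itpr2*, an inositol trisphosphate receptor of intracellular calcium release, at 3.72, 5.04 and 4.22 against 68.6, 58.2, 33.6 and 49.2 (-3.45 ± 0.31, adjusted p = 5.4e-10). In PTc *Itpr2* differed by -0.30 between the sexes and *Slc5a12* by -0.05, neither called (adjusted p = 0.46 and 0.9). For *Slc5a12* the difference between the clusters was -2.57 ± 0.23, adjusted p = 5.4e-10, and for *Cyp2d26* -3.46 ± 0.31, adjusted p = 5.4e-10. *Spp1*, the secreted phosphoprotein osteopontin, stood at 112, 56.4 and 94.3 CPM in male and 4431, 4128, 1144 and 1609.7 in female PTs cells (-2.82 ± 0.21, adjusted p = 5.9e-12), and its male level was below that in the endothelium of KO male, at 697 CPM relative to the UMI total, and in its red blood cells, at 1278 CPM. In the same endothelium *Oat* (114 CPM), *Acaa2* (150), *Itpr2* (23.6) and *Prodh2* (11.8) were also above the PTs cells of KO male. *Gldc* (7.87) and *Cyp2d26* (0) were below them. The part of free RNA in these differences was not tested.

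By list, 9 of 16 convoluted segment genes were more female in PTs than in PTc and none more male (median -0.84 against -0.02 over all genes). Of 18 female-biased genes 9 were more female and 1 more male, and of 22 male-biased genes 10 were more male and 1 more female. *Hsd11b1* (3.90 ± 0.55, adjusted p = 5e-06), *Acsm3* (2.66 ± 0.47, adjusted p = 0.00022) and *Kap* (1.40 ± 0.18, adjusted p = 1.2e-06) were more male in PTs than in PTc. How far free RNA entered these values was not tested. Over all genes 1.31% were more male and 2.62% more female in PTs, the shares to set beside these lists. Of 33 genes of the uptake list none passed the threshold between the clusters, which is near the 3.93% of all genes that did.

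**Figure D5:**
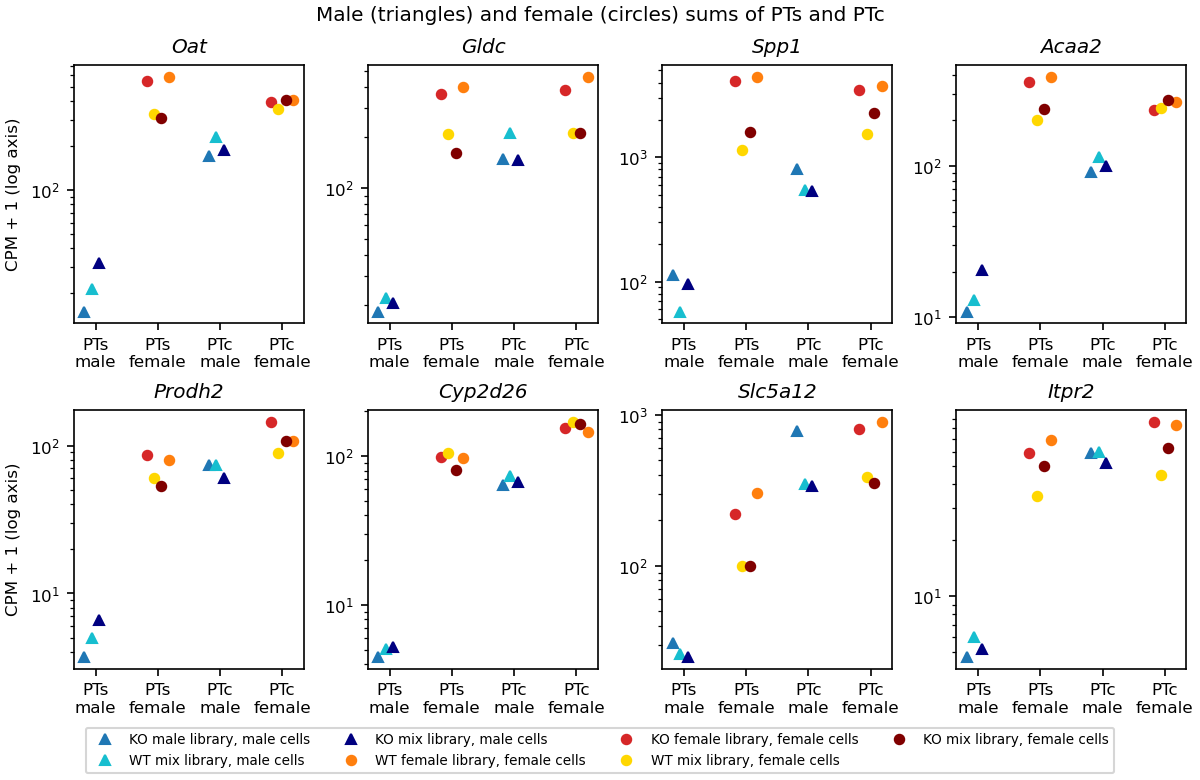
CPM + 1 (log axis) of the 8 genes whose sex difference differed most between PTs and PTc, with triangles for male and circles for female sums of each cluster. In *Oat* the male PTs sums lie at 13.9 to 30.98 CPM and every other sum lies higher.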

How the data were processed

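Droplet single-cell RNA sequencing measured 3′ tags of dissociated kidney cells. UMIs were counted by the authors in Cell Ranger 4.0.0 against mm10, cells with few UMIs or many mitochondrial UMIs were discarded, and clusters were made from the integrated data in Seurat 3.2.2.9001. The deposited matrix holds raw counts of 17389 genes. Members and gene lists were chosen with earlier results of these data known. The deposited annotation gives each cell a library, run, cluster, percent of mitochondrial UMIs and a Scrublet score, and 1 further column was not used. Counts were summed per library or per library and sex (at least 20 cells) and tested with edgeR 4.0.16 (TMM, default filter, robust quasi-likelihood, two-sided, Benjamini-Hochberg threshold 0.05) in R 4.3.3. Sex-choosing genes were left out of sex fits. CPM use TMM factors over PTs, PTc, PT1 and PT2 together, and are not corrected for gene length, which 3′ tags do not need. Shares carry 95% exact binomial intervals and a floor of 3 counts, which cover counting error only, and cells were thinned to 1000 UMIs. No cell was removed as a doublet. Named genes were the 12 largest called, non-overlapping differences in each direction, up to 6 lowest p per list, and the 8 lowest p between clusters. *Kap*, *Cyp2e1*, *Esr1*, *Hbb-bt*, *Aqp3* and genes of the families were named after their values were seen. Alternatives were DESeq2 1.42.0, limma 3.58.1, other filters and scalings, cell subsets and each library left out. Gene positions came from GENCODE on GRCm38. *Fame* is listed as ccdc198. Some items are not reported here. For genotype, both female libraries form a pair and both mix libraries another, since they share the run and the sex named for the library. WT mix and KO mix did not share the sex ratio, with 69.7% and 30.2% males among called PTs cells. Deviations from genotype means correlated by 0.808 and 0.540 in these pairs over 10342 genes.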

Additional observations from a re-analysis of the deposited data

Results flagged for a closer look

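Of 32 genes screened for a female sum that stands apart from the other 3, 2 were found, and chance gives about 1 in 20. *Baat* stood at 1.47 CPM in the female cells of KO mix and at 7.75 to 7.89 CPM in the other female sums. *Cyp2d9* stood at 20.7 CPM in the female cells of WT mix and at 0 to 1.47 CPM in the others.

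The difference between male and female cells itself differed between PTs and PTc for 333 genes. The genes named for it had PTs minus PTc log2 differences of -3.53 for *Oat*, -2.98 for *Gldc*, -2.82 for *Spp1*, -3.32 for *Acaa2*, -3.73 for *Prodh2*, -3.46 for *Cyp2d26*, -2.57 for *Slc5a12* and -3.45 for *Itpr2*, each more female in PTs.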

How the results depend on the processing

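The 1927 genes called between the sexes became 1178 with DESeq2, 737 with at least 20 counts in every sum, where 2126 genes were tested, 1146 within the mix libraries with the library as a replicate block, and 3455 in the single-sex libraries alone without a genotype covariate, where KO male is the single male library and no wild type male enters, an alternative chosen after seeing the data, as were the doublet score, scaling to the UMI total and the *Slc5a2* and *Slc5a12* filter. Leaving out 1 library gave 1088 to 1694, the lowest without KO male. The 333 genes that differed between PTs and PTc became 197 with DESeq2, 79 with at least 20 counts in every sum (1262 tested), 268 with no replicate block and 211 to 317 with 1 library left out, 211 without WT female and 217 without KO female. For genotype 0 genes were called in all 16 alternatives, including a replicate block of run (0) or of sex composition by library name (0). The latter block does not account for the different shares of males in WT mix and KO mix. The genotype difference between the clusters called 4 genes without a filter on low counts, 0 to 2 with 1 library left out (2 without WT female), and 0 with no replicate block. The PTs share of cells changed direction in cells of at most 25% mitochondrial UMIs, to 0.960 percentage points (exact permutation p = 0.9), and was -3.87 to -0.44 points with 1 library left out.

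Genotype log2 differences, none called, changed sign for *Fame* (-1.26 to 0.81 with 1 library left out), *Fth1* (-0.69 to 0.66 with 1 left out, 0.076 with the run as block, 0.0020 in female cells), *Slc25a39* (-0.99 to 0.74 with 1 left out), *Slc22a30* (-0.20 to 5.15 with 1 left out, -0.027 with sex composition as block), *Slc7a13* (-0.53 to 7.39 with 1 left out, -0.51 with sex composition as block, -0.29 in female cells) and *Cyp4b1* (-0.52 to 3.03 with 1 left out, -0.30 with sex composition as block, -0.11 in female cells). *Ctsl* reversed to 0.016 in the single-sex libraries alone, again with 1 male library. Of 89 genes named for sex, 65 kept direction and call in every alternative that tested them and 24 lost the call in at least 1, and the 8 named between PTs and PTc kept theirs. The causes were not tested. Single-sex libraries with a genotype covariate were not run, since no residual degrees of freedom remain, and the mitochondrial limit left too few female cells of WT mix.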
